A study of Mus musculus with 3 samples.

Results

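The genes described here are 38 genes of glucose and pyruvate metabolism, chosen by name from the 47593 gene rows of the series: 14 glycolytic enzymes, 2 lactate dehydrogenase subunits, 5 glucose and monocarboxylate transporters, 3 genes of the pyruvate dehydrogenase complex, 10 citrate cycle genes and 4 pentose phosphate genes. Primary neurons from the hippocampus of WT mice were profiled by RNA sequencing in 3 libraries. All 3 formed 1 group, given fresh neural medium with B27 and penicillin-streptomycin for 24 h. The culture medium was Neurobasal, with B27 at 10% and GlutaMAX at 1%, in an incubator at 37 °C and 5% CO2. The design also names neurons given apoE particles, which were not analysed here, so no treatments were compared and each comparison below is between genes or between libraries. Whether separate cultures or animals lie behind the 3 libraries is not stated in the labels, and p-values and SDs then measure only the spread between these samples, which may be technical.

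Glycolysis splits glucose into pyruvate in the cytosol, and lactate dehydrogenase interconverts pyruvate and lactate, which cells exchange through monocarboxylate transporters. The pyruvate dehydrogenase complex turns pyruvate into acetyl-CoA for the citrate cycle in mitochondria, while the pentose phosphate pathway draws glucose 6-phosphate off to make NADPH and ribose. Several of these steps are served by more than 1 gene, with forms known to be favoured by neurons, astrocytes, muscle or liver.

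The libraries were alike in depth, with 18780572, 18683966 and 18885652 reads recovered in replicates 1, 2 and 3, so that 3 reads stood for 0.159 to 0.161 CPM (counts per 1000000). No library repeated another: the chi-square per gene between 2 libraries was 2.24 to 3.83, above sampling noise. Mitochondrially encoded genes held 7.13%, 8.25% and 7.61% of the reads. All 8 neuronal markers were detected, with a summed level of 5071 to 5178 CPM. All 8 astrocyte markers were detected too, at a summed 1898 to 1923 CPM, and 6 of 7 markers of the oligodendrocyte lineage at 280 to 297 CPM. Of the microglial markers 0 of 7 and of the endothelial markers 1 of 5 were detected, with summed levels of 2.61 to 4.45 and 4.87 to 5.27 CPM and no read of Cldn5, while 3 of 5 mural and fibroblast markers were detected (summed level 53.1 ± 3.14 CPM) and 0 of 3 erythroid markers were detected, with no read of Hbb-bs. The values below therefore belong to cultures with both neuronal and astrocyte RNA, in which fewer cells of a type and less RNA per cell cannot be told apart.

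Nearly every gene of the set was expressed. At 1 CPM or more in each library, 37 of the 38 genes were detected, beside 29.4% of all gene rows and 59.0% of protein coding genes. The exception was Slc16a3, which encodes the lactate exporter MCT4, with 6, 9 and 12 reads in replicates 1, 2 and 3. As unscaled CPM, the median of the 38 genes was 123 CPM against 27.8 CPM for all detected genes, and 27 of the 38 (71.1%) lay at 100 CPM or more against 17.9% of detected genes. Scaled per kilobase of annotated exon, the median was 31.9 against 6.10 CPM per kilobase. On that scale 35 of the 38 lay above the median of detected genes, and 16 lay at or above the 90th percentile.

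**Figure D1:**
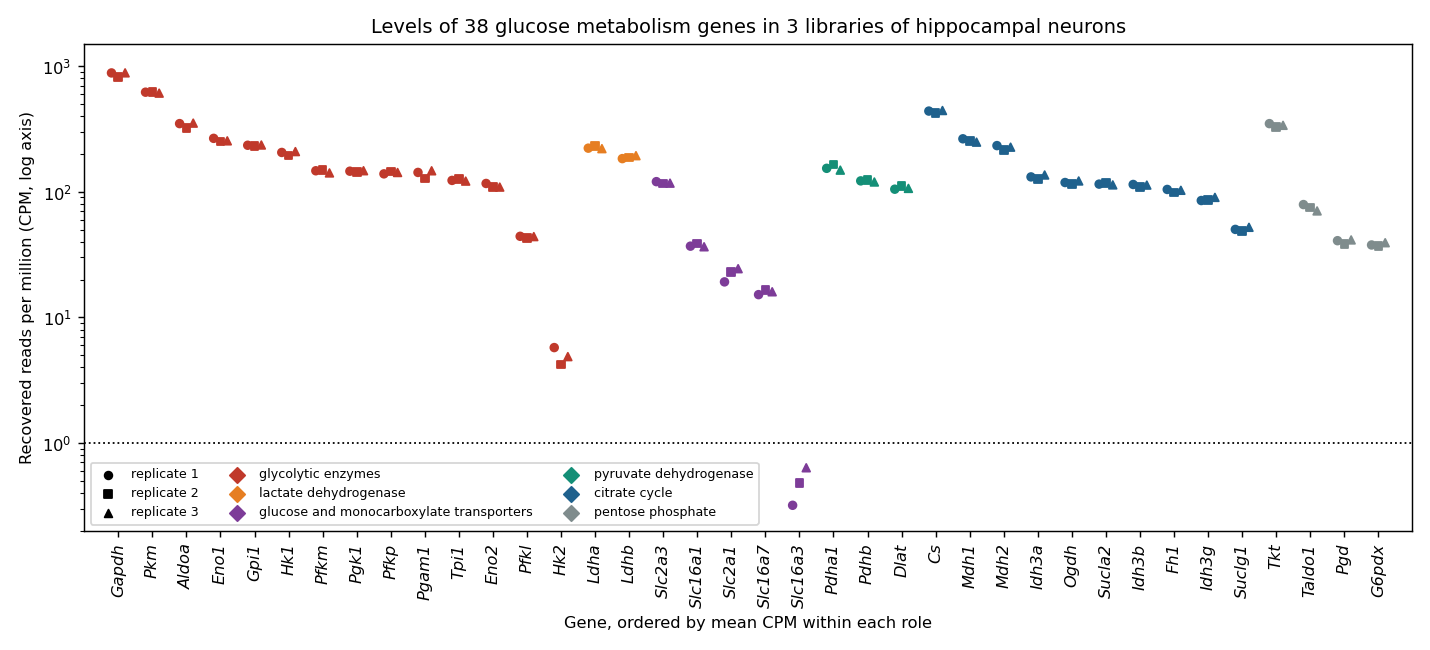
Level of each of the 38 genes in replicates 1 to 3, in CPM of recovered reads on a log axis without length scaling, grouped by role and ordered by mean. The dotted line marks 1 CPM: only Slc16a3 lies below it, and for most genes the 3 points nearly coincide.

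Together the 38 genes took 0.648% ± 0.006 of the summed deposited expression (SD, n = 3 libraries). Glycolytic enzymes took 0.337% ± 0.004, citrate cycle genes 0.163% ± 0.002 and pentose phosphate genes 0.0490% ± 0.0008. These SDs are of deposited values, which pull libraries together. In recovered reads they were larger: 0.0099 for all 38 genes, 0.0071 for glycolytic, 0.0034 for citrate cycle and 0.0014 for pentose phosphate genes. Lactate dehydrogenase took 0.0412%, the pyruvate dehydrogenase genes 0.0385% and the transporters 0.0194%. These shares are sums over unequal numbers of genes and unequal transcript lengths.

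Compared as the median log2 level per kilobase within a library, glycolytic enzymes lay above citrate cycle genes by 0.50 ± 0.03, above pentose phosphate genes by 1.08, and citrate cycle genes lay above pentose phosphate genes by 0.58. The first of these differences depended on the summary used: with the mean of the genes in place of the median it was −0.050. With the median, its SD of 0.03 is of deposited values and was 0.06 in recovered reads. Hk2, at 0.829 CPM per kilobase, was the lowest of the glycolytic genes, and the next was Pfkl at 6.55. Both distances to the pentose phosphate genes stayed positive with either summary and each length scaling.

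Before the enzymes are compared, some of their transcripts need to be set beside near-identical copies elsewhere in the genome, because reads of such stretches can be split among copies or lost in counting. In the longest coding transcript of Gapdh, the glycolytic dehydrogenase often used as a reference gene, 78.1% of windows of 100 bases also occur in transcripts of other annotated genes, 86 genes in all, of which 79 are processed pseudogenes. The share was 67.0% for Pgk1, 59.0% for Eno1 and 39.7% for Pgam1. Of the other 34 genes, Pfkp came next at 16.04%, a stretch shared with the antisense gene Pitrm1, and 16.9% of the 50-base windows of Pdha1 were shared, with the antisense gene Map3k15 and 1 other. The stretches below show how alike the copies are; capitals mark the base that differs between the gene and its copy. They are shown for the copy with the most reads among those that line up with the whole coding part without a gap and differ in it, from the GENCODE M21 transcripts on GRCm38. The first pair covers coding bases 326 to 415 of Gapdh (chr6:125161715-125166467, minus strand) and the same stretch of its pseudogene Gm5559 (chr5:95861714-95862715, plus strand), which differs in 1 of 999 coding bases. The second covers coding bases 667 to 756 of Eno1 (chr4:150236721-150248879, plus strand) and its pseudogene Gm4735 (chr2:80837141-80838442, plus strand), which differs in 5 of 1302.
Gapdh: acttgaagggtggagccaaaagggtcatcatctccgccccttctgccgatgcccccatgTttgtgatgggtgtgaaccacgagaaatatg
Gm5559: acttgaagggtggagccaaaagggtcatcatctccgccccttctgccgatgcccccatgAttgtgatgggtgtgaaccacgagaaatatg
Eno1: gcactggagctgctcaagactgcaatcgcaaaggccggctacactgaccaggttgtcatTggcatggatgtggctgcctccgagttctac
Gm4735: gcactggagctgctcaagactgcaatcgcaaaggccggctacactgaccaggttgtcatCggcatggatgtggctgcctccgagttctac

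Of the Gapdh copies 82 are listed in the files, 11 of them without reads. The copies summed to 115 ± 5.21 CPM, which equals 13.4% ± 0.98 of the level of Gapdh (SD, n = 3). The pseudogene Gm5559 had 709, 790 and 788 reads. The 3 copies whose coding part does not differ from Gapdh had fewer: Gm7336 had 115, 145 and 145 reads, Gm12671 13, 16 and 18, and Gm10359 9, 4 and 7. Among the copies of Pgk1, Pgk1-rs7 had 71, 109 and 107 reads and Gm5537, without a difference over the 1251 coding bases of Pgk1, had 2, 1 and 1. The copies of Pgam1, Eno1 and Pgk1 summed to 5.08%, 4.40% and 3.55% of their genes' levels. The levels of Gapdh, Pgk1, Eno1 and Pgam1 below are uncertain for this reason, and those of Pfkp and Pdha1 because no source used here says whether the counting kept the strand. Exons of Pkm overlap those of Gm49759 over 15.3% of their length, and exons of Pfkm overlap those of Gm26513 and the antisense gene Senp1 over 10.75%, so these levels and the ratio of Pfkp over Pfkm are uncertain as well. Exons of Gpi1 overlap those of the antisense gene Gm26762 over 11.5%. With this and their shared 50-base windows, the levels of Gpi1, Pdhb and Ldhb are uncertain too. So are the ratios of Pdha1 over Pdhb and Ldha over Ldhb.

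**Figure D2:**
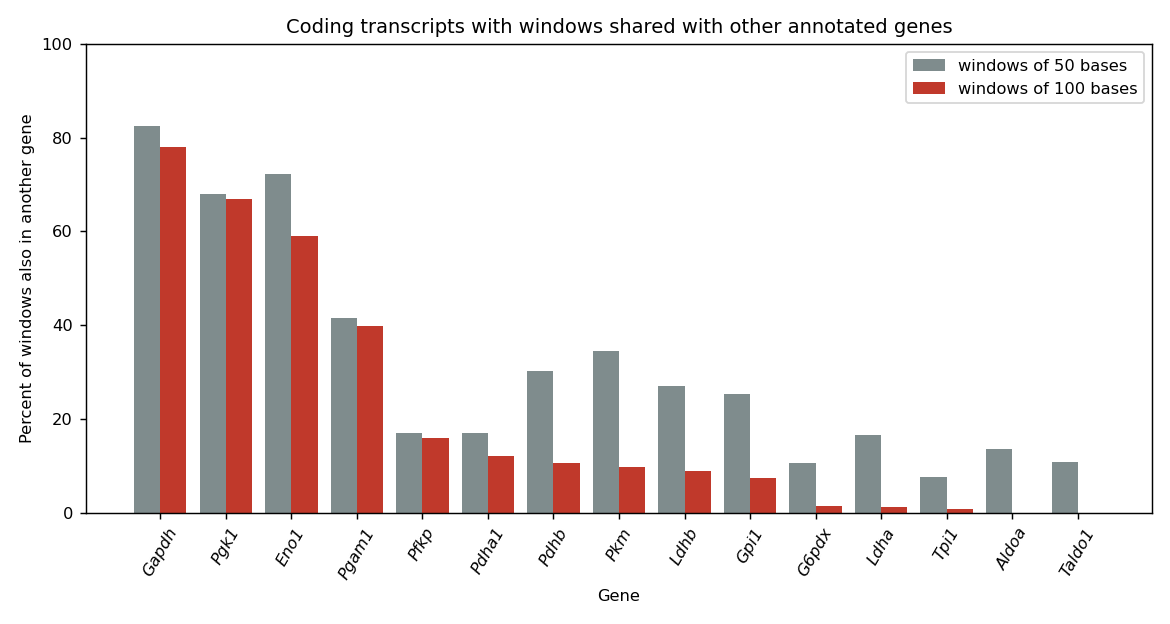
Percent of windows of 50 bases (grey) and 100 bases (red) in the longest coding transcript that also occur in transcripts of other annotated genes, for the genes with more than 5% of 50-base windows shared. Gapdh, Pgk1, Eno1 and Pgam1 stand above the other genes at 100 bases, between 39.7% and 78.1%.

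Among the 4 hexokinase genes compared, whose enzymes phosphorylate glucose, Hk1 was by far the highest. Hk1, the form that predominates in brain, had 3859, 3634 and 3942 reads in replicates 1, 2 and 3. Hk2, the form of muscle and fat, had 108, 79 and 92. Both genes kept to separate ranges in every library. Per kilobase of exon, with 0.5 added to each level, Hk1 exceeded Hk2 by 4.19 ± 0.11 log2 units, an 18.3-fold ratio. The difference was 5.10 when the longest coding transcript was used as the length. Hk2, at 0.829 CPM per kilobase, lay close to the 0.5 added, so the size of the ratio depends on that setting. In deposited values per kilobase of exon it was 4.84 with 0 added and 2.30 with 5 added. Hk1 made up 96.2% ± 0.486 of the summed level per kilobase of 4 hexokinase genes, and Hk2 3.35%. Gpi1, which isomerises glucose 6-phosphate to fructose 6-phosphate, had 233 ± 2.73 CPM.

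All 3 phosphofructokinase genes, whose enzyme commits sugar to glycolysis, were expressed. Pfkm, the muscle form, had 2759, 2776 and 2666 reads, Pfkp, the platelet form, 2607, 2705 and 2687, and Pfkl, the liver form, 830, 805 and 830. Pfkl lay below both others in every library. How Pfkp stood against Pfkm turned on the length assumed: the log2 ratio was −1.99 ± 0.05 per kilobase of all annotated exons, −0.56 per kilobase of the longest coding transcript and −0.04 ± 0.05 without length, where Pfkp was higher in 1 of 3 libraries. The annotated exons of Pfkp span 13401 bases but its longest coding transcript 4145. The order Pfkm above Pfkl was kept under each length, with log2 ratios of Pfkl over Pfkm of −2.64, −2.06 and −1.72, and Pfkp lay above Pfkl by 0.65, 1.51 and 1.69.

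The middle of the pathway was high. Aldoa, the aldolase found in most tissues, had 6547, 6017 and 6641 reads, or 341 ± 16.3 CPM. It exceeded Aldoc, the brain form rich in astrocytes (224 ± 9.34 CPM). The difference was 0.77 ± 0.02 log2 units per kilobase and 1.45 with the longest coding transcript. Of the 50-base windows of Aldoa 13.5% also occur in other genes, against 0.0% for Aldoc, so the size of this difference is uncertain. At 100 bases the share was 0.0% for both. The triose phosphate isomerase gene Tpi1 had 124 ± 2.85 CPM, Gapdh 863 ± 34.2, the phosphoglycerate kinase gene Pgk1 145 ± 1.77 and the phosphoglycerate mutase gene Pgam1 139 ± 10.1. Gapdh was the highest of the 38 genes under both length scalings, with 209 ± 8.27 CPM per kilobase of exon and 608 ± 24.1 per kilobase of the longest coding transcript. Gapdh, Tpi1 and Eno2 lie close together on the minus strand of chromosome 6 in GRCm38, Eno2 at chr6:124760053-124769673, Tpi1 at chr6:124810586-124814296 and Gapdh beyond them.

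The last steps showed 1 form each above its relatives. Eno1, the enolase of most tissues, had 4997, 4683 and 4800 reads, and Eno2, known as neuron-specific enolase, 2186, 2036 and 2056. Eno1 exceeded Eno2 by 1.00 ± 0.02 log2 units per kilobase and the direction was kept under each length (1.66 with the longest coding transcript and 1.20 without length). Of the summed level per kilobase of 3 enolase genes, Eno1 made up 65.7%, Eno2 32.6% and the muscle form Eno3 1.68%; Eno1b and Eno4 were not in this sum. Pkm, which encodes the pyruvate kinase of brain and muscle, had 11644, 11574 and 11505 reads, or 616 ± 6.09 CPM, while the liver form Pklr had 4, 8 and 1 reads. Splice forms of Pkm cannot be told apart in gene counts.

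Among lactate dehydrogenases both main subunits were expressed and the testis form Ldhc had 1 read in all. Ldha, the subunit abundant in muscle, had 4175, 4303 and 4160 reads, and Ldhb, the subunit abundant in heart and in neurons, 3447, 3503 and 3657. Reads of Ldha thus outnumbered those of Ldhb in each library, but the order turned round once length was taken into account. The log2 ratio of Ldha over Ldhb was 0.25 ± 0.06 without length, −0.82 ± 0.06 per kilobase of exon and −0.22 ± 0.06 per kilobase of the longest coding transcript, always with the same sign in 3 of 3 libraries. The annotated exons sum to 3310 bases for Ldha and 1570 for Ldhb. Ldhb per kilobase stood at the 98.1 percentile of detected genes and Ldha at the 95.9.

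**Figure D3:**
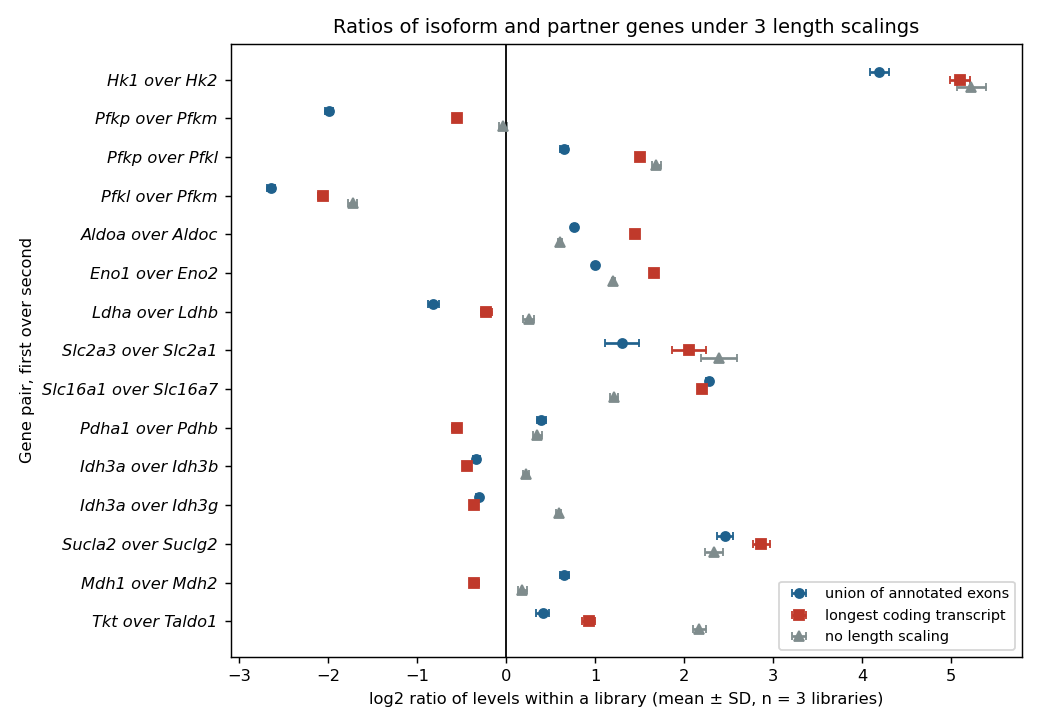
Log2 ratio of the first over the second gene of 15 pairs within a library, in recovered reads, as mean ± SD over 3 libraries, per kilobase of all annotated exons (blue), per kilobase of the longest coding transcript (red) and without length (grey). Values right of 0 mean that the first gene is higher: 5 pairs, Ldha over Ldhb, Pdha1 over Pdhb, Idh3a over Idh3b, Idh3a over Idh3g and Mdh1 over Mdh2, lie on both sides of 0 according to the length used.

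Both main glucose transporter genes of brain were expressed. Slc2a3, the neuronal glucose transporter GLUT3, had 2260, 2180 and 2210 reads, and Slc2a1, GLUT1 of vessels and astrocytes, 360, 430 and 461. Slc2a3 exceeded Slc2a1 by 1.30 ± 0.19 log2 units per kilobase, a 2.47-fold ratio, by 2.06 with the longest coding transcript and by 2.39 without length. The SD of this ratio was the highest of the 15 pairs, and Slc2a1 was lowest in replicate 1. Slc2a3 made up 70.1% ± 2.57 of the summed level of the class I transporters, Slc2a1 27.2% ± 2.80, the insulin-responsive Slc2a4 2.57% and the liver form Slc2a2 0.145%.

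Of the lactate carriers, Slc16a1 was highest and Slc16a3 nearly without reads. Slc16a1, MCT1, known for glia and vessels, had 693, 725 and 689 reads, and Slc16a7, the high-affinity neuronal carrier MCT2, 285, 309 and 302. Slc16a1 exceeded Slc16a7 by 2.28 ± 0.04 log2 units per kilobase, a 4.86-fold ratio, by 2.20 with the longest coding transcript and by 1.21 without length. The size of this ratio also depends on the 0.5 added to each level. In deposited values per kilobase of exon it was 2.65 with 0 added and 1.08 with 5 added. The summed level of the endothelial markers was at most 5.27 CPM, while all 8 astrocyte markers and 6 of 7 markers of the oligodendrocyte lineage were detected. What each of these cell types gave to Slc16a1 was not tested. Slc16a3 made up 0.733% of the summed level per kilobase of the 4 monocarboxylate transporters. A further carrier, Slc16a8 (MCT3, known from the pigment epithelium of the eye), had 97, 102 and 107 reads. It held 19.4% of that sum per kilobase of exon, against 10.9% for Slc16a7, but 9.17% against 26.9% without length. Bsg, the accessory protein that brings MCT1, MCT3 and MCT4 to the cell surface, had 342 ± 15.05 CPM, and Emb, the usual partner of MCT2, 6.94 ± 0.91 CPM.

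The RefSeq sequence before the start sites was read for these genes, because Ldha and Ldhb, and Slc16a1 and Slc16a3, are partners whose levels are compared above. The window was the 250 bases before the start site, read 5′ to 3′ on the gene's strand, from GRCm38.p6, and 35 of the 38 genes were matched, some with several start sites. The letters searched were ACGTG, the core of a sequence known to be bound by hypoxia-inducible factors and by several other factors, on both strands, so that CACGT also counts and CACGTG counts on both strands. A match was present in 14 of the 35 genes (40.0%), against 25.4% of detected genes and 18.5% of all genes in the table. Genes with several windows have more chances of a match, and by window the shares were 41.2%, 21.5% and 16.6%. The 14 genes were Hk2, Pfkm, Aldoa, Pgk1, Pgam1, Pkm, Ldha, Slc2a1, Slc16a1, Slc16a3, Pdhb, Ogdh, Mdh1 and Idh3g. Ldha had 5 matches in 1 of its windows (chr7:46845554-46845803, plus strand) and Ldhb had 0 (chr6:142507958-142508207, minus strand). Slc16a1 (chr3:104638414-104638663, plus strand) and Slc16a3 (chr11:120948817-120949066, plus strand) had 2 each. Those of Slc16a1 are 1 CACGTG counted on both strands, and those of Slc16a3 are 2 separate ACGTG. Whether matches go with levels was not tested. Matches are in capitals below and describe the letters only.
Ldha: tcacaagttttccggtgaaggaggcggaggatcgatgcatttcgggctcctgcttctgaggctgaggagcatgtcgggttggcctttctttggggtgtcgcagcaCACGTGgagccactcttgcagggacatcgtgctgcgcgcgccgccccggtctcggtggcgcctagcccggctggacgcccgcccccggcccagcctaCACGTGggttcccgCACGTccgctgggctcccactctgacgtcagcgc
Ldhb: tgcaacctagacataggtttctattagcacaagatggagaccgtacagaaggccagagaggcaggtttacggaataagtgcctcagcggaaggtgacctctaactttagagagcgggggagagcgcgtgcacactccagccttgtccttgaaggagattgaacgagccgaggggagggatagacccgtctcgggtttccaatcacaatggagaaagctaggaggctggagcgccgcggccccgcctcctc
Slc16a1: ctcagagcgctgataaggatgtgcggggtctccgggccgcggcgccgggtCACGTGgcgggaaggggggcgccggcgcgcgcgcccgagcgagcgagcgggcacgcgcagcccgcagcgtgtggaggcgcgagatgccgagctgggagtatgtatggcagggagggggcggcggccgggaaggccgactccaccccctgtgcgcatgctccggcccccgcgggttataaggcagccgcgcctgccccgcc
Slc16a3: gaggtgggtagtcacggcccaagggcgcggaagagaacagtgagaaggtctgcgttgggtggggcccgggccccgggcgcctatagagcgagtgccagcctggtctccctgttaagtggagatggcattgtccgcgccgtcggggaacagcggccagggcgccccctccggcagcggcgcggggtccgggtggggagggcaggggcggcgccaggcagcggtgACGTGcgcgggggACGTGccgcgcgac

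The 3 genes of pyruvate entry lay close together. Pdha1, the catalytic alpha subunit of pyruvate dehydrogenase, had 2885, 3071 and 2806 reads, Pdhb, its beta subunit, 2292, 2315 and 2258, and Dlat, the acetyltransferase core, 1968, 2088 and 2008. Replicate 2 was the highest library for each of them. Pdha1 over Pdhb was 0.39 ± 0.05 on the log2 scale per kilobase of exon and 0.35 without length, but −0.56 per kilobase of the longest coding transcript, so their order was not settled. Of 12 further genes of pyruvate entry, 12 were detected, led by Dld, the shared dihydrolipoamide dehydrogenase (138 ± 6.47 CPM), Pdp1, the phosphatase that activates the complex (109.5 ± 3.18), and Pdhx, its binding protein (69.0 ± 3.81). The kinases that switch the complex off were split per kilobase among Pdk2 (37.3% of their sum), Pdk1 (30.6%) and Pdk3 (27.7%), with 4.42% for Pdk4, the form induced by fasting in other tissues. Without length Pdk1 led with 53.8%.

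In the citrate cycle all 10 genes were detected. Cs, the citrate synthase gene, had 8238, 7911 and 8368 reads, or 435 ± 10.3 CPM. The 3 subunits of NAD-dependent isocitrate dehydrogenase lay within a narrow range, with 131 ± 4.59 CPM for Idh3a, 112 ± 2.64 for Idh3b and 86.9 ± 2.80 for Idh3g. Per kilobase Idh3a held 28.5% of their sum, Idh3b 36.1% and Idh3g 35.4%. Without length the order of Idh3a turned round, to 0.23 above Idh3b and 0.59 above Idh3g on the log2 scale. Ogdh, of the oxoglutarate dehydrogenase complex, had 118 ± 3.57 CPM and Fh1, fumarase, 102 ± 2.89.

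Of the succinyl-CoA synthetase subunits, Sucla2, which makes the enzyme specific for ATP, had 2160, 2190 and 2141 reads, and Suclg2, which makes it specific for GTP, 448, 431 and 386. Sucla2 exceeded Suclg2 by 2.46 ± 0.09 log2 units per kilobase, a 5.50-fold ratio, by 2.87 with the longest coding transcript and by 2.34 without length. The transcript of Sucla2 was thus higher in 3 of 3 libraries under each length. Of the windows of Suclg2, 21.8% at 50 bases and 11.9% at 100 bases also occur in Gm15163, against 0.0% for Sucla2. Reads of Suclg2 may be split or lost there, so the size of this ratio is uncertain. Suclg1, the alpha subunit that both forms share, had 50.4 ± 1.63 CPM. Of the malate dehydrogenases, the cytosolic Mdh1 had 4956, 4721 and 4686 reads and the mitochondrial Mdh2 4375, 4003 and 4274. Mdh1 over Mdh2 was 0.65 ± 0.05 on the log2 scale per kilobase of exon and 0.18 without length, but −0.36 per kilobase of the longest coding transcript.

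**Figure D4:**
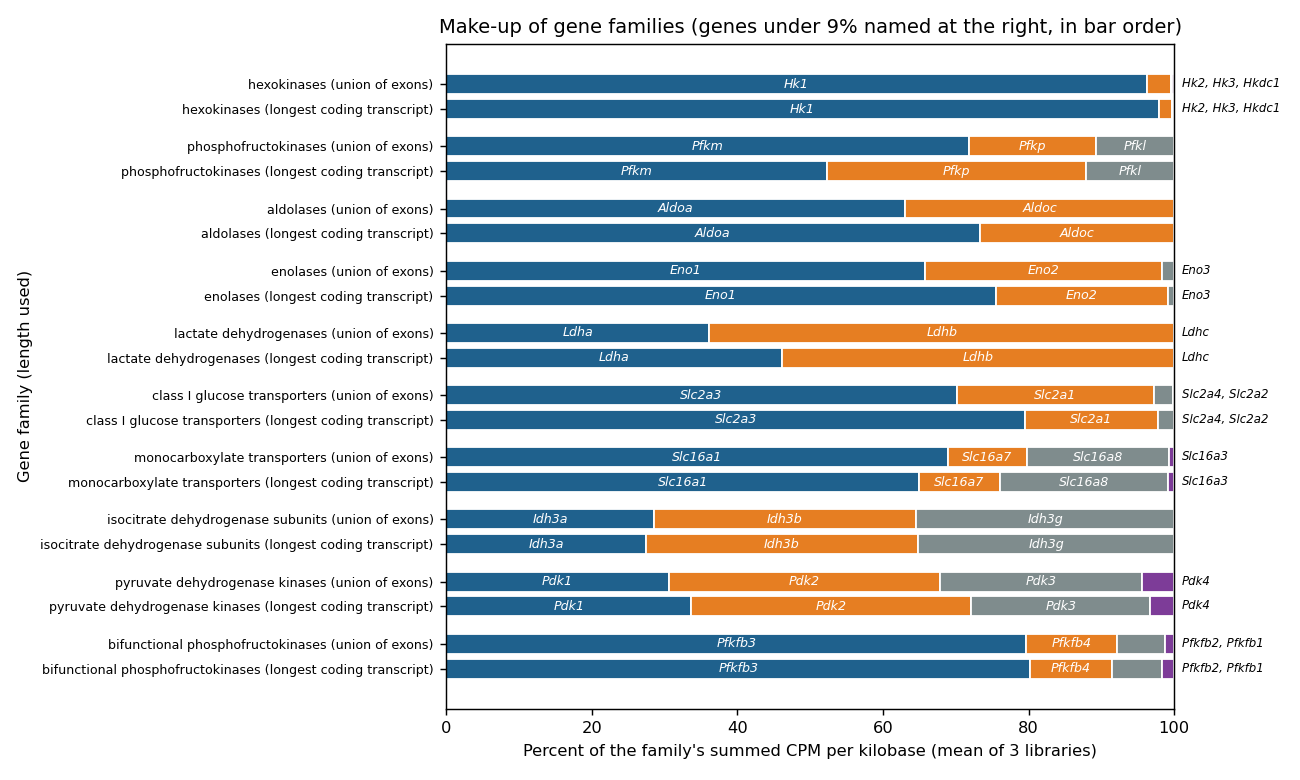
Percent of a family's summed CPM per kilobase held by each gene, as the mean of 3 libraries, with the union of annotated exons and with the longest coding transcript as the length; genes under 9% are named at the right in bar order. Hk1, Slc2a3 and Pfkfb3 each hold over 70% of their family with both lengths, while the lactate dehydrogenases and isocitrate dehydrogenase subunits are shared more evenly.

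Pentose phosphate genes were uneven. G6pdx, the first and rate-limiting enzyme of the oxidative branch, had 708, 688 and 742 reads, and Pgd, the next NADPH-making enzyme, 766, 714 and 781. In the branch that exchanges carbons between sugars, Tkt, transketolase, had 6545, 6130 and 6379 reads and Taldo1, transaldolase, 1485, 1398 and 1329. Tkt exceeded Taldo1 by 0.41 ± 0.07 log2 units per kilobase, by 0.93 with the longest coding transcript and by 2.17 without length, so its size but not its direction depended on length. Per kilobase of exon Taldo1 and Tkt stood at the 89.6 and 92.8 percentile of detected genes, and G6pdx and Pgd at the 69.6 and 50.6. Exons of G6pdx overlap those of the antisense gene Ikbkg over 13.6% of their length.

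Over all 15 pairs, 10 had the same direction under each of the 3 lengths and 5 did not. Each had an exact two-sided sign-flip permutation p of 0.25 (adjusted over the 15 pairs, 0.25), the smallest that 3 libraries allow, so no pair could pass 0.05. Of the 10, Pfkp over Pfkm without length was smaller than its SD.

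Most other genes of these pathways were detected as well. Of 89 such genes in 6 lists, 69 were detected and 19 lay below 1 CPM in every library, 3 of them without a read. With recovered reads in place of deposited values 68 were detected. By the same rule 59.0% of all protein coding genes were detected. Of the further glycolytic genes and regulators 14 of 24 were detected, near the share of protein coding genes. They were led by Aldoc, by Pfkfb3 (160 ± 2.24 CPM), which makes the activator fructose 2,6-bisphosphate and whose protein is known to be degraded in neurons, and by Minpp1 (43.6 ± 2.72). Pfkfb3 held 79.7% of the summed level per kilobase of its 4-gene family. Among those below 1 CPM were Hk3, Hkdc1, Gapdhs, Pklr and the gluconeogenic Fbp1 and Fbp2, with 1 to 33 reads in all each, and without reads in any library were Pgk2, a testis form, and G6pc, which releases glucose from liver.

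Of the other transport and lactate genes 10 of 15 were detected, led by Bsg, the inositol carrier Slc2a13 (40.3 ± 1.90 CPM) and Slc16a6 (29.8 ± 0.52). Ldhc, Ldhd, Slc2a2, Slc2a5 and Slc2a12 lay below 1 CPM. Of the other citrate cycle and anaplerotic genes 18 of 19 were detected, among them the aspartate aminotransferase Got2 (229 ± 1.27) and Dlst (212 ± 2.01), the succinyltransferase of the oxoglutarate complex. Pck1, of gluconeogenesis in liver, had no reads. Of the other pentose phosphate genes 5 of 8 were detected, led by Pgls (49.8 ± 4.22), Rpe (44.4 ± 3.12) and Rpia (12.9 ± 0.45), with Tktl1, Tktl2 and G6pd2 below 1 CPM. Of the glycogen genes 10 of 11 were detected, or 9 with recovered reads. They were led by Pgm2l1 (389 ± 18.03), which makes glucose 1,6-bisphosphate, the brain glycogen phosphorylase Pygb (210 ± 3.84) and Gyg (61.1 ± 1.43), the primer of glycogen. The liver glycogen synthase Gys2 lay below 1 CPM with 3 reads in all.

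The libraries were then compared to see how steady these genes were between samples given the same medium. Against counting error alone, 6 of 37 genes tested differed between libraries, which is 16.2% against 8.62% of all 15131 genes tested (chi-square test on 2 degrees of freedom, Benjamini-Hochberg adjusted p under 0.05 over all genes). Such calls come more easily with more reads: where a gene averaged at least 500 reads, the share was 5 of 34 (14.7%) for the set and 16.2% for all genes. Judged against the spread usual for a gene of its abundance, 0 of the 37 were called, beside 0.317% of all genes (0.531% of those averaging at least 500 reads). At an unadjusted p under 0.05 the numbers were 14 of 37 against counting error, beside 20.7% of all genes, and 2 of 37 against the usual spread, beside 6.14% of all genes. These last shares are not matched for reads: 34 of the 37 genes averaged at least 500 reads, while the shares cover all 15131 genes tested.

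The 6 genes were Gapdh (adjusted p = 5.63e-09), Aldoa (4.28e-05), Pgam1 (6.16e-05), Pdha1 (0.00699), Slc2a1 (0.0193) and Mdh2 (0.0232). Gapdh had 16572, 15392 and 16687 reads and Pgam1 2676, 2384 and 2773. Gapdh, Aldoa, Pgam1 and Mdh2 were lowest in replicate 2, Pdha1 was highest in replicate 2, and Slc2a1 was lowest in replicate 1. Without replicate 2 the count was 1, Slc2a1, and 334 of all genes. Without replicate 1 it was 7, with Hk1 and Cs added and Slc2a1 lost, and 1187 of all genes. Without replicate 3 it was 5, with Tkt added and Slc2a1 and Pdha1 lost, and 835 of all genes. Replicate 2 also had the highest share of mitochondrially encoded reads, at 8.25%, and its part in these calls was not tested.

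Replicate 2 was the lowest library for 21 of the 38 genes, among them 10 of 14 glycolytic and 7 of 10 citrate cycle genes, while it was the lowest for 37.0% of all genes tested. The distances were small: the median log2 deviation of replicate 2 from the other libraries was −0.03 for the 38 genes and −0.01 for all genes tested. The pyruvate dehydrogenase genes went the other way, at 0.09. The coefficient of variation between libraries had a median of 3.20% over the 38 genes, where counting error alone gives 2.08%, and the highest was 33.0%, for Slc16a3, where counting error alone gives 33.3%. Of the further pathway genes, 7 of 74 tested differed beyond counting error, beside 8.62% of all genes tested. Beyond the usual spread 0 differed, beside 0.317% of all genes tested.

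**Figure D5:**
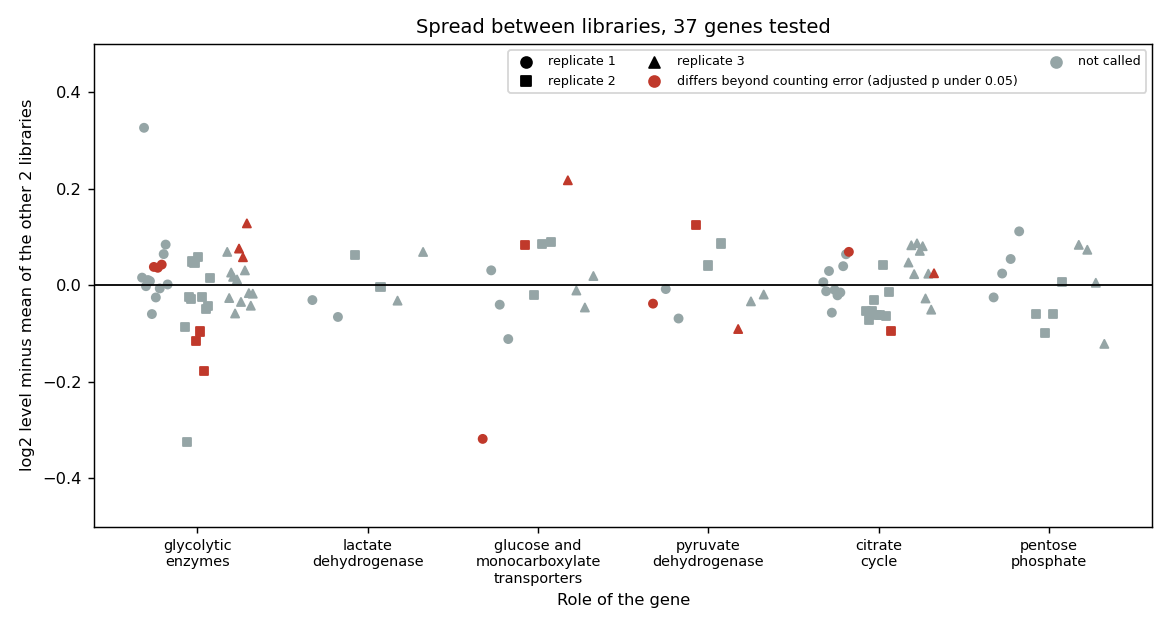
Log2 level of each library minus the mean of the other 2 for the 37 genes tested, by role; red marks the 6 genes that differed beyond counting error (adjusted p under 0.05) and grey the others. Points of replicate 2 lie mostly below 0 among glycolytic and citrate cycle genes, with medians of −0.04 and −0.06, and above 0 for the pyruvate dehydrogenase genes.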

How the data were processed

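RNA of 3 libraries of 1 group was analysed. For each gene and library the authors deposited 1 value on a log2 scale, and the submitters' processing notes name FastQC, HISAT2, featureCounts, DESeq2 and GRCm38; no source used here gives versions, roles or strandedness. The deposited values behave as a regularized log does, pulling libraries together, so whole reads were recovered by inverting a penalised negative binomial model (6 fitted parameters); 99.95% of 67797 values came within 0.1 of a whole read, against 20% by chance, and all 114 values of the 38 genes did. Detection, and shares and median differences with their SDs, use 2 raised to the deposited value. CPM, tests, the other SDs and the pair ratios printed with an SD use recovered reads.

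Pair ratios are log2 differences per kilobase within a library with 0.5 added to each level. The 15131 genes averaging at least 10 reads were tested for differences between libraries with a Pearson chi-square on median-of-ratios size factors, against counting error and against a dispersion trend over 20 bins of abundance, with Benjamini-Hochberg adjustment over all genes. The trend test was first checked on simulated reads of the 15131 genes. Counting error is the only error that floors of 3 reads cover.

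The 38 genes and all lists were chosen with earlier results of these data known. Named genes were the 38, both genes of each of the 15 pairs, of each further list the 3 highest and those below 1 CPM in every library, and defining markers, except a few genes not reported here; the families (with Slc16a8, Eno3, Slc2a4 and the Pdk genes), Emb, the named copies, the promoter letters and the line at 500 reads were chosen after values were seen. Lengths and positions are from GENCODE M21 on GRCm38, where 2 genes carry the name Aldoa and the longer coding one was used. No genome was used, so copies were sought among annotated transcripts. Python 3.11.15, numpy 2.4.6, scipy 1.17.1, pandas 2.3.3, statsmodels 0.14.6 and matplotlib 3.10.9 were used.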

Additional observations from a re-analysis of the deposited data

How the results depend on the processing

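Of 248 alternative values, 217 were kept, 16 moved, 6 turned round and 9 lost a call. Depending on the result, kept meant the same direction, the same side of the threshold, within 1 SD or, for counts, within 1.5 times. Pair ratios were judged by direction alone, so a change in their size did not count. Of the 217 kept, 93 came from leaving out 1 library. Without length scaling Ldha over Ldhb was 0.25, Idh3a over Idh3b 0.23 and Idh3a over Idh3g 0.59; with the longest coding transcript Pdha1 over Pdhb was −0.56 and Mdh1 over Mdh2 −0.36 (log2, deposited values). These follow from the lengths alone, since nothing else was changed. With 0 or 5 added to each level in place of 0.5, the sizes of the 15 pair ratios changed. Their directions could not, because the same amount added to both genes cannot turn a ratio round within a library. Hk1 over Hk2 became 4.84 and 2.30, Slc16a1 over Slc16a7 2.65 and 1.08, and Sucla2 over Suclg2 2.57 and 1.78. With means in place of medians, glycolytic over citrate cycle genes was −0.050, glycolytic over pentose phosphate 0.82 and citrate cycle over pentose phosphate 0.87. Without length the 3 differences were 0.32, 1.40 and 1.08, and with the longest coding transcript 0.41, 1.28 and 0.87. With mitochondrially encoded genes left out of the sum, the shares were 0.364% for glycolytic enzymes, 0.0446% for lactate dehydrogenase, 0.0210% for transporters, 0.0416% for pyruvate dehydrogenase, 0.176% for the citrate cycle, 0.0531% for pentose phosphate and 0.701% for all 38 genes. Genes that differed beyond counting error numbered 1 to 7 when a library was left out, and Mdh2 lost its call with upper-quartile size factors (adjusted p = 0.0518); the count beyond the usual spread was 0 in each alternative. No paired analysis was possible because the libraries form 1 group. Leaving out 1 of 3 libraries cannot turn round a ratio with the same sign in each, so those outcomes add little. With 3 libraries, a gene of few reads such as Slc16a3 or Hk2 is known least well.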
